A study of Mus musculus with 8 samples.

Results

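The 5 genes Tbc1d1, Pctp, Abcg1, Zfp69 and Nmur2 have been tied to obesity or diabetes in crosses or sequence comparisons of the New Zealand Obese (NZO) mouse. They were found by their gene names on the array and make up 5 of 34836 gene names and 6 of 55681 probes. Liver RNA was compared between 4 male NZO mice (strain NZO/HiBomDife), which become obese and diabetic, and 4 male B6 mice (C57BL/6, the substrain not being given), which stay lean. Mice of both strains were 6 weeks of age and had received a diet with 45% fat, so that no group on another diet stands beside them. Each mouse was measured on 1 single-colour Agilent array. The p-values therefore measure the spread between single mice.

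Tbc1d1 encodes a Rab GTPase-activating protein that holds back vesicles with the glucose transporter GLUT4 until insulin or AMPK signals release them, and it is best known from skeletal muscle. Pctp encodes a phosphatidylcholine transfer protein with a START domain and is abundant in liver, and NZO mice carry a variant of its coding sequence. Abcg1 encodes an ABC transporter that moves cholesterol out of cells, in particular macrophages. Zfp69 encodes a zinc finger protein with a KRAB domain, a domain that recruits repressors of transcription, and a retrotransposon in the gene is known to disrupt its transcript in several strains. Nmur2 encodes a receptor for the neuropeptides neuromedin U and neuromedin S, which acts in the hypothalamus on food intake.

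The probes decide which part of a transcript each value stands for. All have 60 bases and a single spot on the array, and their positions are those of the mm9 build in the scanner files. The first 30 bases of 5 of them are given, 5′ to 3′ along the transcript. No bases are set in capitals.
Tbc1d1, base 5288 of the transcript, chr5:64742581-64742640, plus strand: ggagggtgacagtggacagcttctttccac
Tbc1d1, base 3603 of the transcript, chr5:64736592-64736651, plus strand: aagaatggagaaattggagaaaaccaacag
Pctp, base 1423 of the transcript, chr11:89845219-89845278, minus strand: gtcttcctatgtactaaggtgactttccat
Zfp69, base 1100 of the transcript, chr4:120603946-120604005, minus strand: ttgttctccattgaaaaaagcctccagcta
Nmur2, base 3216 of the transcript, chr11:55838492-55838551, minus strand: tcctgaccttgaccaccaccgattcctcag
Both Tbc1d1 probes are assigned to the same RefSeq transcript. Whether the strains differ in sequence below a probe was not tested.

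Levels are given as log2 of the processed signal relative to the 75th percentile of the same array, which ranged from 119 to 142 intensity units in NZO and from 136 to 159 in B6. The share of spots well above background was 50.4% to 55.0% per array in NZO and 53.1% to 60.1% in B6. The brighter Tbc1d1 probe and the probes for Pctp and Abcg1 were well above background on all 8 arrays. The dim Tbc1d1 probe was above background on 2 NZO and 4 B6 arrays, Zfp69 on 0 NZO and 2 B6 arrays, and Nmur2 on 0 of the 8 arrays. A probe entered the limma test if all 4 mice of 1 strain or the other had it above background, which held for 27639 probes, among them 4 of the 6 probes of the cloned genes. The thresholds of the study's methods were applied, an unadjusted p of at most 0.05 and a log2 difference of at least 0.7 in either direction. Of all probes tested, 5.16% were called higher and 7.08% were called lower in NZO. Of the 4 tested probes of the cloned genes, the Pctp probe was called, as lower in NZO.

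**Figure D1:**
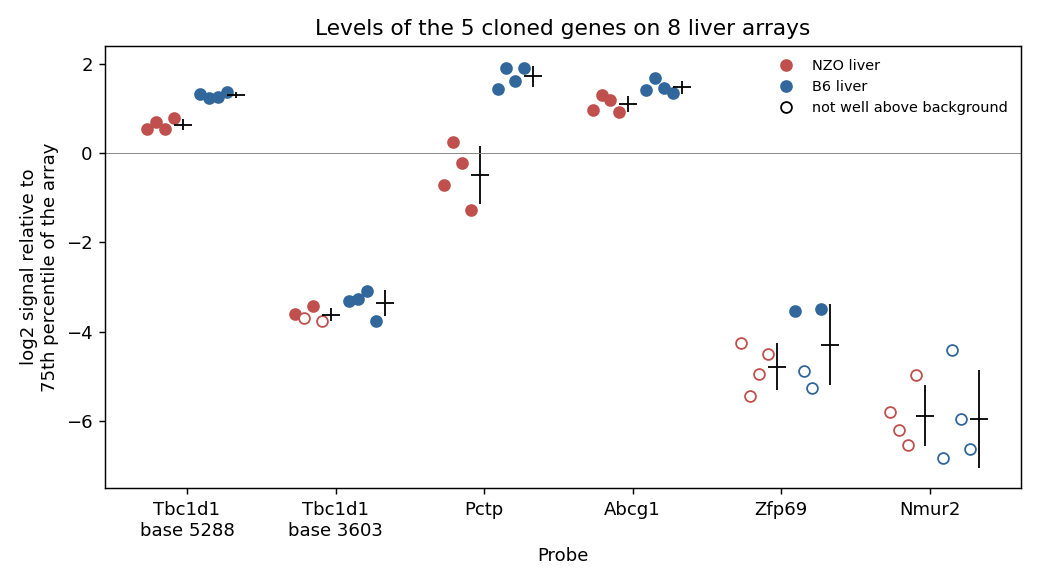
Log2 signal relative to the 75th percentile of the array for the 6 probes of the 5 cloned genes (NZO red, B6 blue, 1 point per mouse, open where not well above background; black marks are the mean and SD of 4 mice). For Pctp the NZO values lie between -1.27 and 0.25 and the B6 values between 1.44 and 1.91, and for Nmur2 all 8 points are open.

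Pctp was lower in NZO liver. Its log2 level was -0.72 in NZO 007, 0.25 in NZO 003, -0.22 in NZO 009 and -1.27 in NZO 011. In B6 it was 1.44 in B6 011, 1.91 in B6 010, 1.61 in B6 015 and 1.91 in B6 009. All B6 mice lay above all NZO mice, and the NZO mice differed more among themselves than the B6 mice did. The means were -0.49 ± 0.65 (SD, n = 4) and 1.72 ± 0.23 (SD, n = 4). The level in B6 was 4.63 times that in NZO, with a 95% confidence interval from 2.85 to 7.52, and the log2 difference was -2.21 (standard error 0.31, limma adjusted p = 0.0019). Of all probes tested, 1.09% had a log2 difference as low or lower. The exact permutation test over the 70 arrangements of the mice gave a two-sided p of 0.0286, the smallest that this design allows. Within the first scan day the log2 difference was -2.18 (3 NZO and 2 B6 arrays), and within the other it was -2.40 (1 NZO and 2 B6 arrays). On the only slide that held both strains it was -1.52 (1 NZO and 2 B6 arrays), and a fit with slide as a fixed term, which rests on these 3 arrays, had a limma adjusted p of 0.17.

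At the brighter Tbc1d1 probe, all NZO mice were below all B6 mice by an amount short of the limit on the log2 difference. Its log2 level was 0.55 in NZO 007, 0.69 in NZO 003, 0.54 in NZO 009 and 0.78 in NZO 011. In B6 it was 1.33 in B6 011, 1.24 in B6 010, 1.26 in B6 015 and 1.37 in B6 009. The 4 mice of each strain lay close together and the strains did not overlap. The log2 difference of -0.66 (standard error 0.10) corresponded to a level in B6 1.58 times that in NZO, with a 95% confidence interval from 1.36 to 1.84. Limma's adjusted p was 0.0024, and 7.44% of all probes tested were lower in NZO with an adjusted p of at most 0.05, whatever the size of their difference. In the fit with slide as a fixed term the adjusted p was 0.20. The log2 difference was -0.58 on the first scan day, -0.80 on the other and -0.56 on the slide with both strains. Without NZO 011 it was -0.71 and past the limit.

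The dim Tbc1d1 probe showed no difference past the spread of the mice. Its log2 level was -3.60 in NZO 007, -3.68 in NZO 003, -3.42 in NZO 009 and -3.77 in NZO 011. In B6 it was -3.32 in B6 011, -3.27 in B6 010, -3.09 in B6 015 and -3.75 in B6 009. The strains overlapped, since B6 009 lay among the NZO mice. The log2 difference was -0.26 (standard error 0.16, 95% confidence interval from -0.62 to 0.10, limma adjusted p = 0.32). With normexp background correction or the raw medians of the deposited table it turned to 0.094 and 0.060, still without a call. Another probe, at chr5:64565429-64565488 of mm9, is described in the files as Tbc1d1 but listed under a transcript identifier, so that it lies outside the 6 probes. It was above background on all arrays, with a log2 difference of 0.04 (standard error 0.27, limma adjusted p = 0.94).

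For Abcg1, the NZO mice were again below the B6 mice, by a small amount. Its log2 level was 0.97 in NZO 007, 1.30 in NZO 003, 1.18 in NZO 009 and 0.92 in NZO 011. In B6 it was 1.41 in B6 011, 1.68 in B6 010, 1.45 in B6 015 and 1.36 in B6 009. The strains did not overlap, with NZO 003 and B6 009 next to each other. The log2 difference was -0.38 (standard error 0.12), a level in B6 1.30 times that in NZO with a 95% confidence interval from 1.07 to 1.59. It was not called, and limma's adjusted p was 0.082. The exact permutation test gave the smallest two-sided p possible here, 0.0286, as it did for the brighter Tbc1d1 probe. Within the scan days the log2 difference was -0.43 and -0.42, and on the slide with both strains it was -0.27.

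Zfp69 and Nmur2 stayed at or near background. For Zfp69 the log2 level was -4.24 in NZO 007, -5.45 in NZO 003, -4.95 in NZO 009 and -4.50 in NZO 011, none of them well above background. In B6 it was -3.54 in B6 011, -4.89 in B6 010, -5.25 in B6 015 and -3.49 in B6 009, and only B6 011 and B6 009 were above background. The lowest level above background on an array ranged from -4.63 to -3.95, and no fold can be given. Both B6 arrays with a signal were scanned on the same day, and on the other day none of the arrays was above background for Zfp69. For Nmur2 the log2 levels ranged from -6.55 to -4.96 in NZO and from -6.83 to -4.41 in B6 and overlapped widely, and a level above background was not detectable on these arrays.

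**Figure D2:**
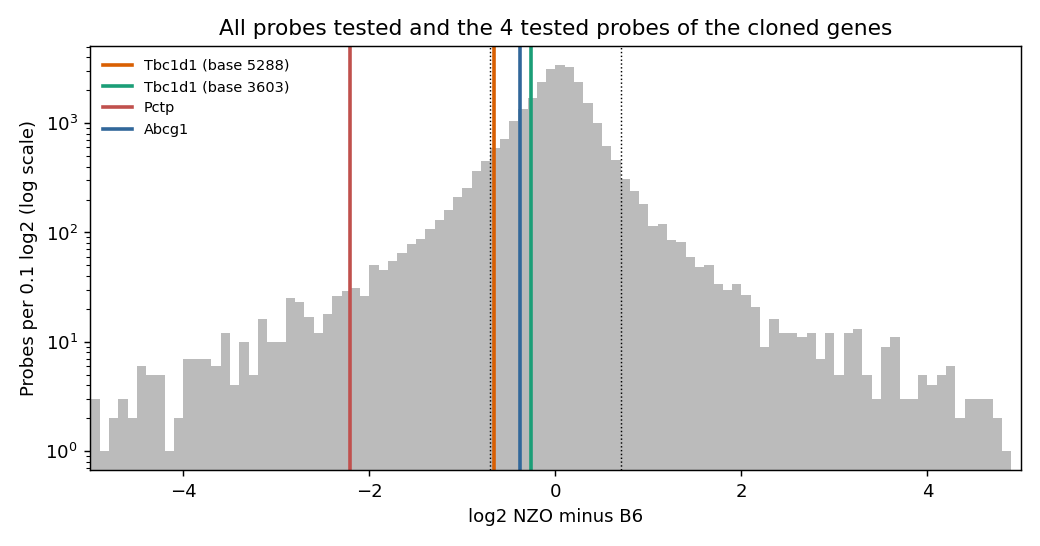
Number of probes (log scale) by log2 difference, NZO minus B6, for the 27639 probes tested, shown from -5 to 5, with the 4 tested probes of the cloned genes as coloured lines and the limits of 0.7 dotted. Pctp at -2.21 lies beyond the limit and the brighter Tbc1d1 probe at -0.66 just inside it.

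Genes known to act with the cloned genes were taken in 5 lists of 61 genes, none of which repeats a cloned gene. Among the 88 probes of these lists that were tested, 0 were called higher and 17 were called lower in NZO, or 19.3%, against 7.08% of all probes. Without any 1 mouse, 15 to 17 were lower and up to 1 was higher, and with normexp background correction 9 were lower, or 10.2% against 2.21% of all probes under that correction. The median log2 difference of all probes tested was 0.01. Scarb1, Hdac1 and Plcb1 each count with more than 1 lower probe. The lower probes of Rab13, Abcg3, Tbc1d4 and Mylip passed the filter through B6 alone, the strain where they were higher. The lists were chosen with earlier results of these data known, so the shares describe these lists and test nothing.

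Of the 22 tested probes for 13 genes around GLUT4 traffic, 3 were called lower and 0 higher, where 7.08% and 5.16% of all probes were, and their median log2 difference was 0.02. Tbc1d4, the close relative of Tbc1d1 that acts on the same Rab proteins, was lower in NZO with a log2 difference of -1.45 at its brighter probe (standard error 0.34, limma adjusted p = 0.023). Its log2 level was -4.47, -3.22, -3.29 and -2.69 in NZO 007, 003, 009 and 011, and between -2.10 and -1.82 in B6, so that the strains did not overlap. NZO 007 was not above background at this probe, and without this mouse the log2 difference was -1.10 (limma adjusted p = 0.0065). With normexp background correction it was -0.23 and with the deposited table -0.47, both short of a call. The other Tbc1d4 probe, above background on 1 NZO array, gave -0.68 (limma adjusted p = 0.039), just short of a call. It was called without B6 010 (-0.73), without B6 015 (-0.78), without NZO 003 (-0.74) and with the mouse number as a replicate block (-0.99). It gave -0.51 without B6 009, -0.26 with slide as a fixed term, -0.11 with the deposited table and 0.01 with normexp background correction. Sort1, a sorting receptor of GLUT4 vesicles, was called lower at 1 of its 3 probes (-1.40, standard error 0.22), while the brightest gave 0.32. Rab13, a substrate of these proteins, was called lower at a probe that was not above background in NZO, at least 1.60-fold lower, while its brighter probe gave 0.61 (standard error 0.12). Slc2a4, GLUT4 itself, gave 0.86 (standard error 0.37, limma adjusted p = 0.18) without a call, at -2.27, -3.16, -3.84 and -2.14 in NZO 007, 003, 009 and 011 and from -4.09 to -3.47 in B6.

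The list around Pctp held 17 genes, proteins with a START domain like that of Pctp, some of which bind other lipids, a thioesterase partner, and enzymes and a transporter of phosphatidylcholine. Of their 28 tested probes, 1 was called lower, for Acot11, and 0 higher, where 7.08% and 5.16% of all probes were. Acot11, an acyl-CoA thioesterase that like Pctp has a START domain, was lower in NZO by a log2 difference of -2.16 (standard error 0.22, limma adjusted p = 0.00037). Its log2 level ranged from -3.47 to -2.58 in NZO and from -1.31 to -0.59 in B6. Acot13, a thioesterase that binds Pctp, gave 0.02 (standard error 0.13, limma adjusted p = 0.93). The median log2 difference over the list was -0.12.

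The genes of sterol efflux had the highest count. Of 17 tested probes for 14 genes, 7 were called lower and 0 higher, against 7.08% and 5.16% of all probes, and their median log2 difference was -0.48. Scarb1, the receptor for high-density lipoprotein, was lower at both probes (-1.36 and -1.40), with log2 levels at the brighter probe from 2.98 to 3.33 in NZO and from 4.09 to 5.01 in B6 (limma adjusted p = 0.0020). Abcg5 and Abcg8, which together secrete sterols into bile, gave -0.82 (limma adjusted p = 0.015) and -0.81 (limma adjusted p = 0.12), and the strains overlapped for Abcg8. Srebf1, a transcription factor of lipid synthesis, gave -0.79, and Abcg3, a relative of Abcg1 that was above background on 1 NZO array, gave -0.91. Mylip, which marks the LDL receptor for degradation, was called at a dim probe (-0.79) that was above background on 3 NZO arrays. The brighter Mylip probe gave -0.61 (limma adjusted p = 0.030) without a call. Abca1, the transporter that loads apolipoprotein A-I, gave -0.35 (standard error 0.15) without a call. Without NZO 007 or without B6 010, 5 of the 17 probes were lower, with normexp background correction 4 were (2.21% of all probes), and with slide as a fixed term 3 were (10.5% of all probes).

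Of the 15 tested probes for 10 genes of repression by KRAB domains, 4 were called lower, for 3 genes, and 0 higher, against the same 7.08% and 5.16% of all probes, with a median log2 difference of -0.19. Trim28, the protein that KRAB domains bind, gave 0.19 (standard error 0.09, limma adjusted p = 0.24) at its bright probe. Hdac1, a histone deacetylase, was lower by -2.10 and -1.43 at its dimmer probes and gave -0.48 at its brightest. Chd3, a chromatin remodeller, was lower by -1.07 (standard error 0.11), and Atf7ip, a partner of the methyltransferase Setdb1, by -0.72 (standard error 0.10).

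Of the 7 genes of neuromedin signalling, the ligands and the other receptor could not be tested. Nms and Nmur1 were not above background on any array, and Nmu was above it on 2 arrays of each strain. Plcb1, a phospholipase downstream of such receptors and many others, was called lower at 2 of its 3 probes (-0.90 and -1.44, with -0.37 at the third). These were the only calls among the 6 tested probes of the list, against 7.08% lower and 5.16% higher among all probes. Of 11 further genes from positional cloning of mouse obesity or diabetes, 8 were tested, and Lep, Tub and Stxbp5l were not. Of their 15 tested probes, 4 were called higher, for Ifi202b and Nnt, and 0 lower, against the same shares of all probes. Ifi202b, an interferon-inducible gene, was at least 80.2-fold higher at one probe and at least 56.0-fold at the other, since it was not above background on any B6 array. Nnt, a mitochondrial transhydrogenase that is deleted in part in some B6 substrains, was higher by 1.57 (standard error 0.15) at its brightest probe, by at least 3.96-fold at a probe not above background in B6, and gave 0.16 without a call at the remaining one.

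**Figure D3:**
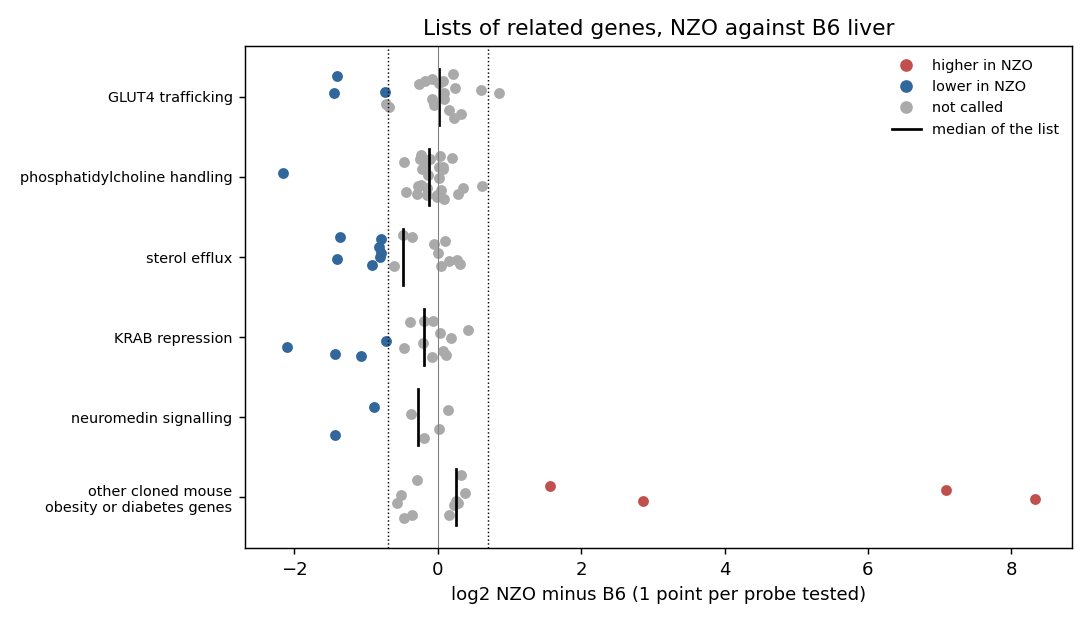
Log2 difference, NZO minus B6, of each tested probe in 6 gene lists (red called higher, blue called lower, grey not called, scattered vertically for legibility only), with the list medians as black lines and the limits of 0.7 dotted. The list of sterol efflux holds 7 blue points. The points for Ifi202b at the far right, 1 of the Nnt points and the Rab13 point called lower are measured against a strain at background, so that their place has no fixed value and the bounds in the text apply.

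The cloned genes lie in chromosome intervals that can differ between the strains as a whole, and the 3 nearest protein-coding genes on each side were therefore examined, in the gene order of RefSeq on GRCm38.p6. Of these 30 neighbours 20 were tested, with 26 probes, of which 1 was called higher and 3 were called lower in NZO, near the 5.16% and 7.08% of all probes tested. Next to Abcg1, Tff3, a trefoil peptide of mucous secretions, was lower by a log2 difference of -4.87 (standard error 0.40, limma adjusted p = 0.00011). Near Tbc1d1, Rell1, a membrane protein related to the TNF receptor family member RELT, was lower by -0.79 (standard error 0.13), while Pgm2, its direct neighbour, gave -0.31 without a call. Near Pctp, Mmd was called higher at 1 of its 4 probes (0.91, standard error 0.15), opposite to Pctp. Near Nmur2, Atox1, a copper chaperone, was lower by -0.84 (standard error 0.11), and around Zfp69 none of the 7 probes tested was called.

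**Figure D4:**
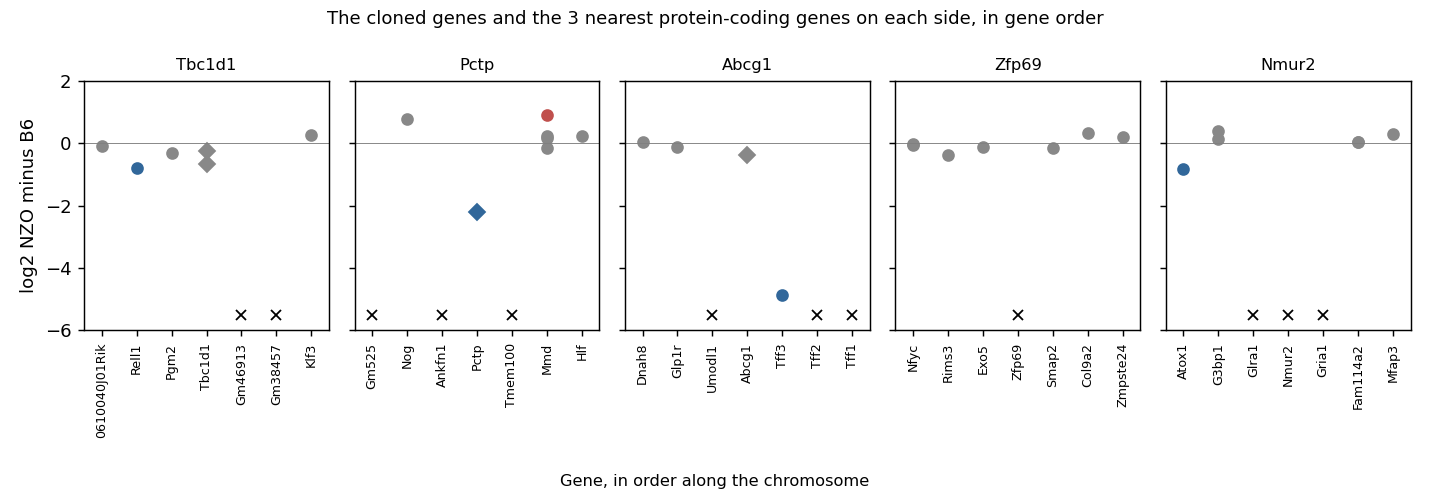
Log2 difference, NZO minus B6, of the probes tested for each cloned gene (diamonds) and its 3 nearest protein-coding genes on each side in chromosome order (circles; red called higher, blue lower, grey not called; a cross marks a gene without a tested probe). Tff3 next to Abcg1 lies at -4.87 and Pctp at -2.21, and none of the genes around Zfp69 is called.

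The genes most like each tested probe were found by Pearson's r over the 8 arrays. Such an r is in large part the difference between the strains, so that the value after removal of the strain means is given beside it. Nearest to Pctp were Agpat4 (r = 0.99, 0.92 without the strain means) and Anapc15 (0.99 and 0.91). Nearest to Abcg1 were Pigu (0.99 and 0.96) and Klhl6 (0.98 and 0.99). For the brighter Tbc1d1 probe they were Cptp (0.996 and 0.95) and Ahcy (0.99 and 0.87), and for the dim one Cul9 (0.96 and 0.95) and Nfkbia (0.95 and 0.93). They stood at the top of those among the 27639 tested probes that were matched to a gene and had a value on every array. The 8 arrays share their scaling. Among the 6 pairs of the 4 probes themselves, r without the strain means ranged from -0.70, between both Tbc1d1 probes, to 0.79, between Pctp and Abcg1.

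Because Pctp and the brighter Tbc1d1 probe were both lower in NZO, the 250 bases before their RefSeq starts are given (GRCm38.p6), of which Tbc1d1 has a pair. Capitals mark the letters GGGCGG (GC box), CCAAT or TATAAA on either strand, which 32.7%, 33.9% and 12.4% of 32851 such windows hold. These motifs do not overlap one another in the windows shown.
Pctp, chr11:90002895-90003144, minus strand: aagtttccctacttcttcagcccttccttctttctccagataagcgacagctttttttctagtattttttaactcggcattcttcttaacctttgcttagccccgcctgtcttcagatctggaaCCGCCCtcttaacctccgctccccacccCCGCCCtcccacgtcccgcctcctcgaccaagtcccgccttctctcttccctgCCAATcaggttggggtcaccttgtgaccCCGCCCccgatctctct
Tbc1d1, upstream start, chr5:64160010-64160259, plus strand: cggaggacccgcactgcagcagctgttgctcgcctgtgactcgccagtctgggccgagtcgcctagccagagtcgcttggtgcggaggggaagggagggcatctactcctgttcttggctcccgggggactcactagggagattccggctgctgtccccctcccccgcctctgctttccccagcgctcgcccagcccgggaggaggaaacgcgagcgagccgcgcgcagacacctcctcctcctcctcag
Tbc1d1, downstream start, chr5:64230107-64230356, plus strand: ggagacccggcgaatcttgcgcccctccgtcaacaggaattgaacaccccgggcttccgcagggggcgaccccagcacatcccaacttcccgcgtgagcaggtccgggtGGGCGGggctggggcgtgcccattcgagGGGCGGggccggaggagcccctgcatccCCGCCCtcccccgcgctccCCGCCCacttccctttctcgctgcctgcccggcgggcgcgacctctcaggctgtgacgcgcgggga
The Pctp window held 3 GC boxes and 1 CCAAT, the downstream Tbc1d1 window 4 GC boxes, and the upstream Tbc1d1 window none of these letters. The matches describe the reference sequence, and which start is used in liver was not tested.

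The tissue matched its label. All 5 hepatocyte markers were above background. Their summed level was 3789 to 3917 in NZO and 3002 to 3767 in B6. Such sums are of the linear signal relative to the 75th percentile, with the brightest probe of each gene. The 7 markers of Kupffer cells and other macrophages, a cell type in which Abcg1 is active, were all above background. Their sum was 141, 140, 117 and 122 in NZO 007, 003, 009 and 011 and 221, 192, 266 and 178 in B6 011, 010, 015 and 009, without overlap, and 4 of their 10 probes were called lower, for Clec4f, Cd5l, Marco and Csf1r, and 0 higher (7.08% and 5.16% of all probes). Without B6 011, B6 015, NZO 009 or NZO 011, 3 of these 10 probes were lower. The count was also 3 with slide as a random block and with the mouse number as a replicate block. Csf1r was called at 1 of its 3 probes (-0.80), while its brightest probe gave -0.51 (limma adjusted p = 0.17) without a call. Lyz2, of the same list, gave 0.41 (limma adjusted p = 0.11) without a call. Fewer cells of a type and less RNA per cell cannot be told apart in bulk tissue, and the part of these cells in the values of Abcg1 and of the sterol genes was not tested. Endothelial markers summed to 79.0 to 105 in NZO and 78.7 to 89.6 in B6. Of their 9 probes, 1 for Stab2 was called lower (-0.93) and 0 higher, where 7.08% and 5.16% of all probes were. The brightest Stab2 probe gave 0.48 (limma adjusted p = 0.0089) and Lyve1 gave -0.63 (limma adjusted p = 0.024), both short of the limit on the log2 difference. Of the 5 adipocyte markers, Adipoq, Plin1 and Lep were below background on all arrays, while Cidec and Fabp4 were above it on all arrays. Fabp4 was the most abundant, at a mean log2 level of 1.82 in NZO and 2.12 in B6, and made up most of the sums. These sums were 3.14 to 4.60 in NZO and 4.36 to 4.88 in B6.

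Skeletal muscle markers, which bear on Tbc1d1 and Slc2a4, were uneven. Their sum was 16.5 in NZO 007 and between 0.20 and 0.40 in the other NZO mice. In B6 it was 5.51 in B6 010 and between 0.44 and 1.40 in the other B6 mice. The brighter Tbc1d1 probe gave a log2 difference of -0.63 without NZO 007 and -0.68 without B6 010. Without NZO 007, Pctp gave -2.13 and Abcg1 gave -0.34. Of 4 neural markers, Tubb3 was below background on all arrays, while Snap25 and Syt1 were above it on all arrays. The mean log2 levels of Snap25 and Syt1 were 1.48 and 1.69 in NZO and 1.66 and 1.32 in B6. The sums were 5.57 to 7.12 in NZO and 5.14 to 6.15 in B6.

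**Figure D5:**
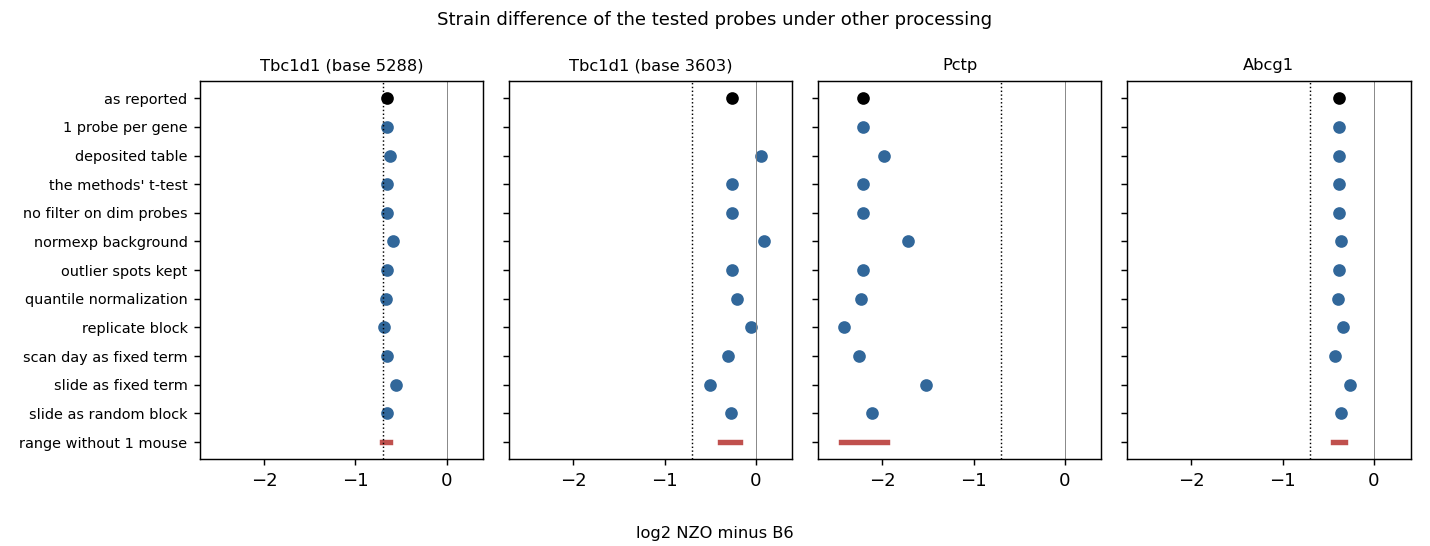
Log2 difference, NZO minus B6, of the 4 tested probes as reported (black), under each alternative (blue) and as the range when 1 mouse is left out (red bars), with the limit of -0.7 dotted. Pctp stays between -2.46 and -1.52, whereas the dim Tbc1d1 probe reaches both sides of 0.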

How the data were processed

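Liver RNA of 8 mice was hybridised to single-colour Agilent arrays of 60-base probes. The authors deposited the scanner output, in which Feature Extraction (11.0.1.1 per the file headers, 9.1 in the submitters' processing notes) gives intensity values, the processed signal being the intensity after background subtraction with no scaling between arrays, and a table whose values equal the raw median intensity. The array design uses mm9. Log2 of the processed signal minus the 75th percentile of each array was taken, without control and outlier spots (96 to 137 per array), and every probe was kept separate. No spot was saturated, and the number of arrays limits the precision.

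limma 3.58.1 in R 4.3.3 compared the strains over 27639 probes, with Benjamini-Hochberg adjustment over all of them, and was tested on simulated data. For a probe below background in 1 strain, the fold is a bound against the lowest level above background on each array. A probe was matched to a gene by RefSeq accession (27656), symbol (3401) or synonym (321), and 24303 were not matched. Named were the cloned genes, the genes of each list past the thresholds (the 6 largest at most) and 10 genes chosen for their role, neighbours past the thresholds, the 2 most alike genes of each probe, and the markers. The cloned genes and lists were chosen with earlier results of these data known. Alternatives were normexp correction (offset 50), quantile normalization, the deposited values, no filter on dim probes, a single probe per gene, outlier spots kept, the methods' t-test, slide or scan day as a term, the mouse number as a replicate block, an exact permutation test and leaving out each mouse. There were 5 slides and 2 scan days. The sequence of 1 probe is not reported here. Alternatives for the related lists, other than the filter, were chosen after seeing the data. Tables and plots were made with Python 3.11.15, numpy 2.4.6, pandas 2.3.3 and matplotlib 3.10.9.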

Additional observations from a re-analysis of the deposited data

Results flagged for a closer look

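In 5 of 82 groups of 4 mice, 1 mouse was set off from its strain's other 3 mice, which by chance alone happens in about 1 of 20 groups. None of them concerned a probe of the 5 cloned genes. The summed level of the skeletal muscle markers was 16.5 in NZO 007, above the other NZO mice. Abcg5 lay at a log2 level of 5.31 in B6 015 and Chd3 at 4.78 in B6 011, both above the other B6 mice. One Plcb1 probe lay at -1.49 in NZO 011, above the other NZO mice and below all B6 mice, and Atox1 at 6.55 in NZO 009, below the other NZO mice.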

How the results depend on the processing

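Pctp was called lower in NZO under all 20 alternatives, with log2 differences from -2.46 to -1.52 and from -2.46 to -1.95 when 1 mouse was left out. Limma's adjusted p exceeded 0.05 with the slide as a fixed term (0.17) and with the replicate block (0.059). The brighter Tbc1d1 probe ranged from -0.71 to -0.56, and from -0.71 to -0.63 without 1 mouse, with an adjusted p of 0.20 with the slide as a fixed term and 0.16 with the replicate block. Abcg1 ranged from -0.45 to -0.27 and was never called. The dim Tbc1d1 probe changed sign with the deposited table (0.060) and normexp correction (0.094), and ranged from -0.39 to -0.17 without 1 mouse. The cause was not tested. The count of probes higher in NZO was 1426, with 916 in the deposited table, 653 with normexp correction and 1401 to 1562 without 1 mouse. The count of lower probes was 1956, with 891, 611 and 1907 to 2238. For the 5 related lists, 17 lower probes of 88 became 9 with normexp correction and 11 with the deposited table, and 15 to 17 without 1 mouse, while 0 to 1 were higher. Of all probes tested, 7.08% were lower as reported, 2.21% with normexp correction, 3.22% with the deposited table and 6.74% to 8.08% without 1 mouse. NZO and B6 mice shared only the numbers 009 and 011, whose deviations correlated at -0.26 and -0.00. With these numbers as a replicate block, the log2 differences were -2.42 for Pctp, -0.69 and -0.06 for Tbc1d1 and -0.33 for Abcg1, with 1747 probes higher and 2423 lower. Without the filter on dim probes, Zfp69 and Nmur2 could be fitted, but Zfp69 was above background on 2 arrays and Nmur2 on 0, which limits what can be read from them.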
